A study of Ovis aries with 6 samples.

Results

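The insulin-like growth factor (IGF) genes described here were the ligands IGF1 and IGF2, the receptor IGF1R, its adaptor IRS1 and the binding proteins IGFBP2, IGFBP3, IGFBP4, IGFBP-5, IGFBP6 and IGFBP7. They were chosen by name, and because several binding-protein genes were lower with MEOX2 in these same libraries. The contrast between the groups is therefore given for these genes as a description, with no p-value, and how many of them passed the threshold of the fit over all genes is stated only beside the share of all genes that did. Of 26425 rows in the deposited expression table, 9 carried the chosen names. A 10th gene, IGFBP6, was written IGFBP-6 in the table, a synonym that RefSeq (assembly ARS-UI_Ramb_v3.0) lists for the same gene, and was included under that spelling. Of the 10 genes, 9 passed the filter, an average of 1 FPKM or more across the 6 libraries. FPKM is a read number scaled to gene length and library size. IGF2 did not pass.

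The 6 libraries came from sheep stromal vascular fraction cells, the mixed cells of adipose tissue that remain once fat cells are removed and that include adipocyte precursors. In 3 samples MEOX2, a mesodermal homeobox transcription factor, was overexpressed, and the other 3 formed the comparison group labelled NC. The deposited values name the groups pHBLV_MEOX2 and pHBLV_NC, so the NC samples share the prefix pHBLV with the overexpressing samples. No other treatment, allele or time point is labelled for either group. The labels give adipocyte as the cell type of all 6 samples and do not say whether samples of a group came from separate animals or cultures, so any p-value reflects the variation among these libraries, part or all of which may be technical.

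IGF1 and IGF2 are secreted peptides that act through the receptor tyrosine kinase IGF1R, which phosphorylates adaptors such as IRS1 and so engages PI3K/AKT and MAP kinase signalling. Most circulating and pericellular IGF is held by IGF-binding proteins, which can keep the ligand from the receptor, carry it or release it when proteases cut them, and several also act on cells without IGF. In adipose tissue, IGF1 is known as a growth and differentiation signal for adipocyte precursors, and stromal cells secrete several of the binding proteins.

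MEOX2 was at 153, 108 and 138 FPKM in overexpressing samples 1 to 3 and at 10.8, 10.1 and 9.03 FPKM in NC samples 1 to 3, so the libraries matched their labels. Whole reads recovered from the FPKM values totalled between 11772772 and 12230863 per library. On the first principal component the groups were separate, and NC sample 3 stood apart on the second (22.2% of variance). Of 11 stromal progenitor markers, 8 were above 100 FPKM in every library (COL1A1, DCN, LUM, PDGFRA, PDGFRB, THY1, NT5E and CD44), ENG was at 15.1 to 21.4 FPKM, CD34 at 0.380 to 1.59 FPKM and LY6E at no more than 0.813 FPKM. None of the 10 tested was called. Without overlap, 4 were higher with MEOX2 (PDGFRA, CD44, DCN and LUM), against 9.60% of all genes tested. Lower without overlap were 3 (ENG, NT5E and CD34), against 9.33%. By limma, 5 of the 10 had an unadjusted p under 0.05, against 13.4% of all genes tested. LEP, a mature fat cell hormone, had 0 reads in every library. Summed over 7 mature adipocyte markers, the level was 117 to 141 FPKM with MEOX2 and 285 to 340 FPKM in NC. Most of that sum was FABP4, at 68.4 to 86.1 FPKM with MEOX2 and 205 to 255 FPKM in NC. Of the 6 tested, 4 were called lower (ADIPOQ, FABP4, PLIN1 and CIDEC), against 1.16% of all genes tested. LIPE was lower without overlap but not called. LPL did not differ, at 39.5 ± 2.45 FPKM in NC and 39.7 ± 4.28 FPKM with MEOX2. Summed mural cell markers were at 97.2 to 111 FPKM with MEOX2 and 70.6 to 76.3 FPKM in NC, most of it CNN1 (66.5 to 75.6 and 45.2 to 51.4 FPKM). Of the 4 tested, 2 were called higher (CNN1 and CSPG4), against 1.51% of all genes tested. MYH11 and NOTCH3 were not called, and RGS5 had at most 4 reads. The part of these markers in the values below was not tested. Endothelial markers summed to at most 0.436 FPKM in any library, with EMCN at 0 reads throughout. The 9 leukocyte markers summed to 121 to 131 FPKM with MEOX2 and 113 to 121 FPKM in NC, most of it CD14 (100.4 to 123 FPKM). CD68 was at 6.63 to 9.84 FPKM, CD163 at 1.33 to 2.80 FPKM and the pan-leukocyte gene PTPRC at no more than 2 reads. None of the 3 leukocyte markers tested was called. Without overlap, CD14 was higher and CD163 lower with MEOX2, beside the same 9.60% and 9.33% of all genes. In a bulk sample, fewer cells of a type and less RNA per cell cannot be told apart.

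IGFBP3, IGFBP-5 and IGFBP2 were lower in each of the 3 MEOX2 libraries than in any NC library. IGFBP4 and IGFBP7 were higher in each MEOX2 library than in any NC library, and IGFBP-6 overlapped between the groups. The ligand IGF1 and its receptor IGF1R also overlapped and had nearly equal means.

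**Figure D1:**
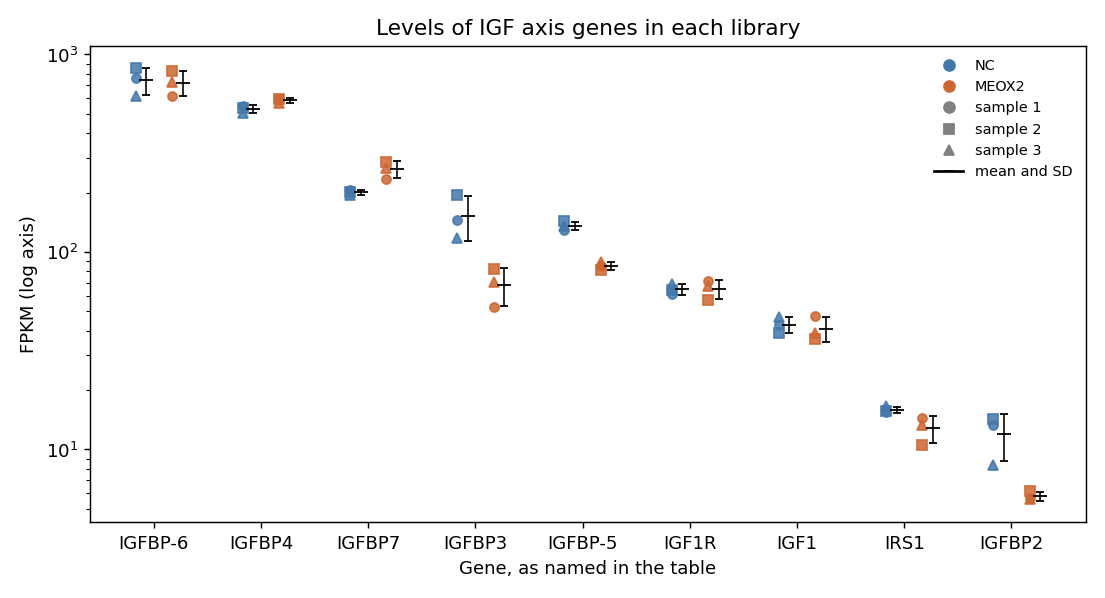
FPKM on a log axis of the 9 IGF genes that passed the filter, with a point per library (blue NC, orange MEOX2, shape by sample number) and the mean and SD of each group (n = 3) as black bars. IGFBP3, IGFBP-5 and IGFBP2 have no overlap and lower MEOX2 points, whereas IGFBP-6, IGF1R and IGF1 overlap.

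IGFBP3, the most abundant IGF carrier of serum (ENSOARG00000012862, chromosome 4, 76176920 to 76178860, plus strand; the build is not named in the sources), showed the largest difference among these genes. Its level was 145, 194 and 118 FPKM in NC samples 1 to 3 and 52.5, 81.7 and 70.3 FPKM in MEOX2 samples 1 to 3. The groups did not overlap, and the lowest NC library, sample 3, lay above the highest MEOX2 library, sample 2. The means were 152.6 ± 38.6 and 68.2 ± 14.7 FPKM (SD, n = 3 each), a 2.24-fold lower level with MEOX2 and a log2 change of -1.14 (SE 0.20) on the log2(FPKM + 1) scale used throughout. These values rested on 283 to 1127 reads per library. Replicates of IGFBP3 varied by 25.3% in NC and 21.6% with MEOX2 (coefficient of variation), where counting alone would give 3.37% and 5.06%.

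IGFBP-5 (IGFBP5; ENSOARG00000019421, chromosome 2, 217650010 to 217669182, minus strand), a binding protein that adheres to the extracellular matrix, was the steadiest of the 3 lower genes. It was at 129, 143 and 135 FPKM in NC samples 1 to 3 and at 84.98, 80.6 and 88.99 FPKM in MEOX2 samples 1 to 3. Each group was tight, with coefficients of variation of 4.96% and 4.94%, and a wide gap lay between them. The means of 135.8 ± 6.73 and 84.9 ± 4.19 FPKM (SD, n = 3 each) differed 1.60-fold, with a log2 change of -0.67 (SE 0.07) and 1530 to 2765 reads per library.

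IGFBP2 (ENSOARG00000019417, chromosome 2, 217607092 to 217636866, plus strand), a carrier with an integrin-binding RGD motif, was the least abundant binding protein that passed the filter. Its level was 13.3, 14.3 and 8.30 FPKM in NC samples 1 to 3 and 5.65, 6.13 and 5.61 FPKM in MEOX2 samples 1 to 3. NC sample 3 was well below the other NC libraries but still above all MEOX2 libraries. The means were 11.97 ± 3.22 and 5.80 ± 0.290 FPKM (SD, n = 3 each), 2.06-fold lower with MEOX2, with a log2 change of -0.90 (SE 0.18). It had 59 to 161 reads per library, so counting alone gives a coefficient of variation of 12.5% with MEOX2 and 8.65% in NC. The observed spread of IGFBP2 was 26.9% in NC, above the counting value, and 4.9997% with MEOX2, below it.

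In the limma fit over all 13121 genes, 3 of the 9 genes that passed the filter had an adjusted p under 0.05 and were lower with MEOX2 (IGFBP2, IGFBP3 and IGFBP-5), where 1.16% of all genes tested were called lower, 1.51% higher and 2.67% in either direction. Since the genes were picked from this contrast, nothing is read from that count. The median log2 change was -0.07 over the 9 genes and -0.00273 over all genes tested. Groups did not overlap for 4 of the 9 with MEOX2 lower (IRS1 is the other) and for 2 with MEOX2 higher, against 9.33% and 9.60% of all genes tested (18.9% in either direction). IGFBP2 lost its call when any library other than NC sample 3 was left out. IGFBP3 lost its call without MEOX2 sample 1, MEOX2 sample 3, NC sample 1 or NC sample 2.

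IGFBP7, a secreted protein of the same superfamily with low affinity for IGF (ENSOARG00000005761, chromosome 6, 72423581 to 72437525, minus strand), lay on the other side. It was at 206, 201 and 195 FPKM in NC samples 1 to 3 and at 235, 286 and 267 FPKM in MEOX2 samples 1 to 3. All MEOX2 libraries were above all NC libraries, and the NC libraries were close together. The means were 200.5 ± 5.43 and 262.5 ± 25.5 FPKM (SD, n = 3 each), with a log2 change of 0.38 (SE 0.08), which was not called.

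IGFBP4, a binding protein known mainly as an inhibitor of IGF action (ENSOARG00000014604, chromosome 11, 40250021 to 40260382, plus strand), was at 549, 535 and 503 FPKM in NC and at 597, 594 and 567 FPKM with MEOX2, in the order of the samples. The groups did not overlap, but the means of 529.1 ± 23.6 and 586.0 ± 16.4 FPKM (SD, n = 3 each) differed by only 10.8%, with a log2 change of 0.15 (SE 0.07) that was not called. IGFBP-6 (IGFBP6; ENSOARG00000016699, chromosome 3, 133213326 to 133216912, minus strand), a carrier that prefers IGF2, was at 756, 850 and 617 FPKM in NC and 613, 828 and 724 FPKM with MEOX2. Libraries of one group differed more than the group means, which were 741.2 ± 117 and 721.3 ± 107 FPKM (SD, n = 3 each). The log2 change of IGFBP-6 was -0.04 (SE 0.14), and its sign turned in 2 of the 16 alternative fits.

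Per length, IGFBP-6, IGFBP4, IGFBP7 and IGFBP-5 were above IGF1R and IGF1 in both groups, whereas IGFBP2 was below both. In NC the order of mean FPKM was IGFBP-6, IGFBP4, IGFBP7, IGFBP3, IGFBP-5, IGF1R, IGF1, IRS1, IGFBP2 and IGF2. The only neighbours in that order whose NC ranges overlapped were IGFBP3 and IGFBP-5. With MEOX2, IGFBP-5 and IGFBP3 changed places, and IGFBP3 overlapped both IGFBP-5 and IGF1R. Within their groups, the mean of IGFBP3 was above that of 94.8% of tested genes in NC and 88.2% with MEOX2, and that of IGFBP2 above 51.3% and 31.5%. FPKM depends on the gene model, and the models of IGFBP7 (435 bases) and IGFBP3 (474 bases) were the shortest here, so the order between genes depends on these lengths whereas the contrast between groups does not.

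Added together, the 6 binding-protein genes reached 1799, 1938 and 1577 FPKM in NC samples 1 to 3 and 1588, 1876 and 1723 FPKM in MEOX2 samples 1 to 3. The sums overlapped. IGFBP-6 and IGFBP4 made up 71.1% to 72.6% of the sum in NC and 74.9% to 76.2% with MEOX2. IGFBP2, IGFBP3 and IGFBP-5 added to a mean of 300.3 FPKM in NC and 158.8 FPKM with MEOX2, while IGFBP4 and IGFBP7 were higher with MEOX2. The make-up of the sum differed. IGFBP2, IGFBP3 and IGFBP-5 together held 16.0%, 18.1% and 16.6% in NC samples 1 to 3 and 9.01%, 8.98% and 9.58% in MEOX2 samples 1 to 3. IGFBP7 held 10.4% to 12.4% in NC and 14.8% to 15.5% with MEOX2, and IGFBP-6 held 41.7% ± 2.39 and 41.6% ± 2.79 (SD, n = 3 each). These shares were set by the same levels that chose the genes and are a description.

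**Figure D2:**
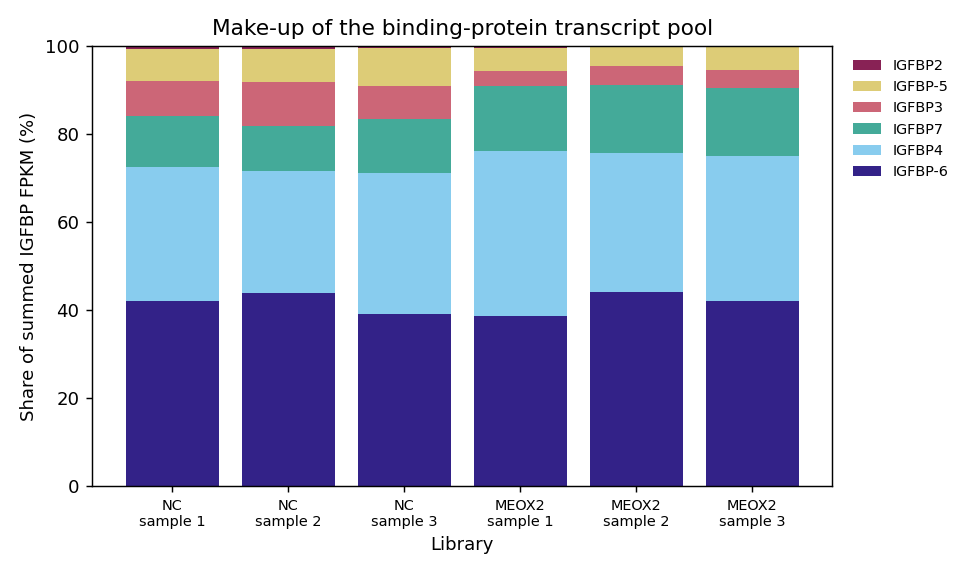
Stacked bars give the share (%) of each binding-protein gene in the summed FPKM of the 6 genes, with a bar per library. IGFBP3, IGFBP-5 and IGFBP2 together take 16.0% to 18.1% in the NC bars and 8.98% to 9.58% in the MEOX2 bars, while the bars' IGFBP-6 shares overlap between groups.

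IGF1 (ENSOARG00000015856, chromosome 3, 171268400 to 171327752, minus strand) was at 42.6, 39.1 and 46.8 FPKM in NC samples 1 to 3 and at 47.7, 36.4 and 38.8 FPKM in MEOX2 samples 1 to 3. MEOX2 sample 1 was the highest of all 6 and MEOX2 sample 2 the lowest, so the groups overlapped. The means were 42.8 ± 3.83 and 40.97 ± 5.93 FPKM (SD, n = 3 each), with a log2 change of -0.07 (SE 0.11) from 234 to 298 reads per library.

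IGF2, the fetal growth factor of an imprinted locus (ENSOARG00000003586, chromosome 21, 48655290 to 48680999, plus strand), had 0, 1 and 0 reads in MEOX2 samples 1 to 3 and 1, 0 and 1 reads in NC samples 1 to 3. A count of 0 allows up to 3 reads, or 0.139 to 0.150 FPKM in the 3 libraries without a read (counting error only). No direction can be drawn from these counts. The IGF2 row overlaps 2 unnamed rows, one on the opposite strand at its end (48679084 to 48681619), and the sources do not say whether reads shared by overlapping genes were dropped in counting. The low count is thus that of the row and need not be that of the transcript. Before IGF2 on the chromosome, TH had 0 reads in every library, and H19_1, 47185 bases away, was at 188.7 ± 76.8 FPKM in NC and 38.4 ± 12.4 FPKM with MEOX2. The H19_1 row is only 70 bases long, with at most 207 reads in a library. After IGF2, an unnamed row 81263 bases away was at 10.9 ± 2.37 FPKM in NC and 5.13 ± 1.38 FPKM with MEOX2. Both rows were called lower, as were 1.16% of all genes tested, and the next row, TNNI2, was not called.

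IGF1R (ENSOARG00000010005, chromosome 18, 7159507 to 7219744, plus strand) was at 61.3, 64.0 and 69.0 FPKM in NC and at 71.2, 57.0 and 66.9 FPKM with MEOX2, in the order of the samples. The MEOX2 libraries spanned a wider range that enclosed all NC libraries. The means of 64.8 ± 3.93 and 65.0 ± 7.29 FPKM (SD, n = 3 each) gave a log2 change of 0.0016 (SE 0.10). In each library the IGF1 level was 0.580 to 0.696 times that of IGF1R.

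IRS1, the adaptor that couples the activated receptor to PI3K (ENSOARG00000020473, chromosome 2, 228093656 to 228097629, minus strand), was at 15.4, 15.6 and 16.6 FPKM in NC and at 14.4, 10.6 and 13.4 FPKM with MEOX2. All MEOX2 libraries lay below all NC libraries. The means were 15.9 ± 0.622 and 12.8 ± 1.97 FPKM (SD, n = 3 each). The log2 change was -0.30 (SE 0.12) and was not called; without MEOX2 sample 2 it was -0.18.

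Libraries of one group also differed from each other in a shared way, as the plot of deviations from group means shows. Among the MEOX2 libraries, sample 1 had the lowest IGFBP3, IGFBP-6 and IGFBP7 and the highest IGF1, IGF1R and IRS1, and sample 2 had the reverse on all 6. Sample 1 also had the most MEOX2 and sample 2 the least. That order went with the difference between the groups for IGFBP3 but against it for IGFBP7 and IRS1. A link to the MEOX2 level was not tested. Among the NC libraries, sample 2 had the highest IGFBP3 and IGFBP-6 and the lowest IGF1, and sample 3 the reverse. Across the 6 libraries, deviations from the group means correlated at 0.98 between IGFBP3 and IGFBP-6, at -0.96 between IGFBP3 and IGF1 and at 0.97 between IGF1R and IRS1. IGFBP-5 did not share this order, with 0.16 against IGFBP3 and -0.01 against IGFBP-6. These are Pearson coefficients over 6 libraries with only 4 free deviations, noticed after the values were seen, and they share library scaling, so they are given as a description.

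**Figure D3:**
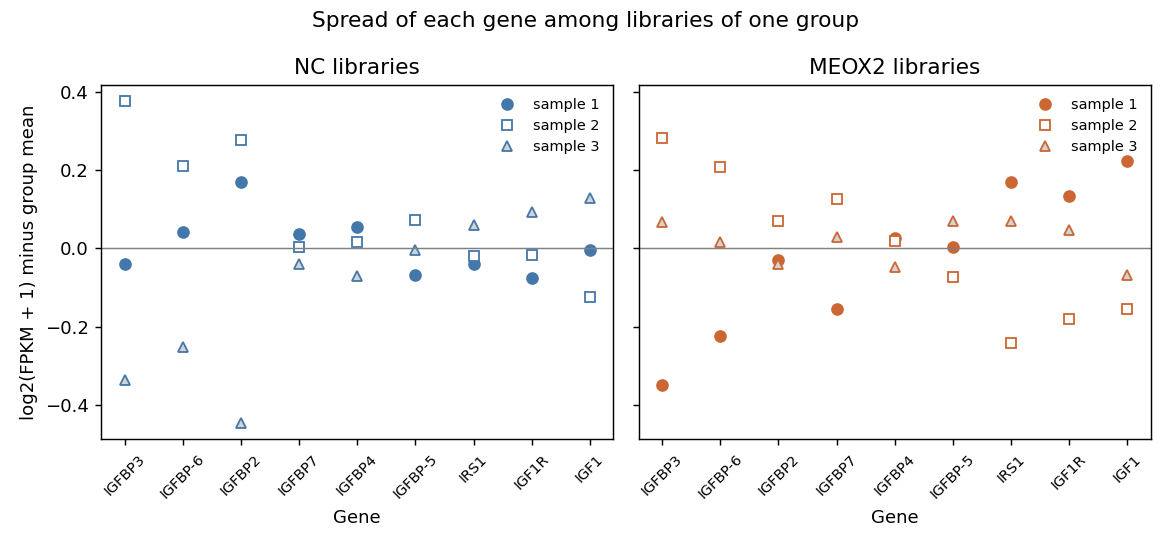
Log2(FPKM + 1) of each gene minus its group mean, for the NC libraries (left) and the MEOX2 libraries (right), with a symbol per sample. IGFBP3 and IGFBP-6 place the samples in the same order within each group, and IGF1 places the highest and lowest of them the other way round.

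IGFBP2 and IGFBP-5 lie next to each other on chromosome 2, pointing toward each other with 13143 bases between them. Their levels over the 6 libraries correlated at 0.88 but their deviations within groups only at 0.04. The only row between them in the table, unnamed (ENSOARG00000019419, 217646580 to 217647153, plus strand, 162 bases long) and 2856 bases from IGFBP-5, was at 449.7 ± 24.8 FPKM in NC and 286.1 ± 18.1 FPKM with MEOX2 (SD, n = 3 each). It was lower with MEOX2 by 0.65 on the log2 scale (SE 0.08, limma adjusted p = 0.00498). The row lies downstream of IGFBP-5, and no strand setting is named. Whether its reads come from a separate gene therefore cannot be told. Beyond the pair, SMARCAL1 was at 14.1 FPKM in NC and 14.6 FPKM with MEOX2 and TNP1 at 0 reads. IGFBP3 has a similar partner on chromosome 4, IGFBP1, a carrier made mainly by liver, 9638 bases away and pointing toward it. IGFBP1 had 1 read in MEOX2 sample 1 and 0 reads in the other 5 libraries.

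The tested genes with a symbol whose log2 levels over the 6 libraries were most like those of the 3 lower genes were SFSWAP, PCOLCE2 and DDOST for IGFBP2, ADAMTS7, PIGT and a gene whose symbol had been turned into a date for IGFBP3, and BGN, IL8 and SCUBE2 for IGFBP-5. Their Pearson coefficients were at least 0.99, and 77, 79 and 124 genes exceeded 0.95 for IGFBP2, IGFBP3 and IGFBP-5, which any gene separating the 2 groups can reach. BGN, the matrix proteoglycan biglycan, was at 709.7 ± 16.3 FPKM in NC and 525.0 ± 24.4 FPKM with MEOX2. SCUBE2, a secreted and membrane-bound glycoprotein, was at 25.1 ± 1.22 and 15.0 ± 0.547 FPKM. PCOLCE2, an enhancer of procollagen processing, shared the dip of IGFBP2 in NC sample 3, with 252, 263 and 218 FPKM in NC samples 1 to 3 and 184, 195 and 184 FPKM in MEOX2 samples 1 to 3.

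A list of 44 other genes of the IGF axis, which the choice above did not use, was read from the same fit. This list was drawn up with earlier results of these data known, so its counts are not independent of them. Of these, 42 were found in the table and 31 passed the filter. HTRA1 rose, none fell, and 30 were not called, so 3.23% were called higher, against 1.51% of all genes tested. At an unadjusted p under 0.05 there were 7 of the 31, against 13.4% of all genes tested, and limma voom called 3, against 4.17%. Its median log2 change was -0.01.

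Among carriers and proteases, HTRA1, a secreted serine protease able to cut IGF-binding proteins (ENSOARG00000007785, chromosome 22, 41254510 to 41282240), was at 637, 606 and 594 FPKM in NC samples 1 to 3 and at 913, 891 and 910 FPKM in MEOX2 samples 1 to 3. The MEOX2 libraries were nearly equal and all far above NC. The means of 612.3 ± 22.4 and 904.7 ± 12.0 FPKM (SD, n = 3 each) differed 1.48-fold, with a log2 change of 0.56 (SE 0.07, limma adjusted p = 0.00461), and HTRA1 was called in all 16 alternative fits (adjusted p up to 0.0299). Its relative HTRA3 was at 56.98 ± 2.76 FPKM in NC and 72.7 ± 6.47 FPKM with MEOX2, without overlap (limma adjusted p = 0.0920). STC1, a stanniocalcin that inhibits the IGFBP protease PAPPA, was at 43.6 ± 3.21 and 33.7 ± 3.86 FPKM (limma adjusted p = 0.120). PAPPA, which cuts IGFBP4, was at 4.93 ± 0.201 and 3.99 ± 0.828 FPKM and was not called. The groups of STC1 and PAPPA did not overlap either, with MEOX2 lower. Limma voom called HTRA3 higher and STC1 lower. IGFALS, the acid-labile subunit that joins IGFBP3 and IGF in serum, stayed under the filter at 0.384 to 0.622 FPKM in NC and 0.679 to 1.69 FPKM with MEOX2, from 6 to 27 reads. Of the 15 genes in this group, 9 were tested, 1 rose and 8 were not called. Thus 11.1% were called higher, against 1.51% of all genes tested. At an unadjusted p under 0.05 by limma there were 3 of the 9, against 13.4% of all genes tested. Limma voom called 3, against 4.17%.

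None of the 10 tested receptors and adaptors was called by limma or limma voom, and 2 had an unadjusted p under 0.05, as had 13.4% of all genes tested. GRB10, an adaptor that restrains the insulin and IGF receptors, was at 36.6 ± 1.67 FPKM in NC and 42.0 ± 0.430 FPKM with MEOX2 (SD, n = 3 each), without overlap. SH2B1, an adaptor of the same receptors, was at 12.5 ± 0.376 and 9.65 ± 1.75 FPKM, also without overlap, and its log2 change of -0.35 was -0.22 without MEOX2 sample 1. IGF2R, which clears IGF2, was at 36.0 ± 1.19 and 32.8 ± 3.67 FPKM, and GAB1, a docking protein, at 6.07 ± 0.806 and 4.97 ± 0.349 FPKM, both with overlap.

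Limma and limma voom called none of 7 tested genes of growth hormone input, which drives IGF1 transcription, and 1 had an unadjusted p under 0.05, beside the same 13.4% of all genes. The growth hormone receptor GHR was at 32.2 ± 3.95 FPKM in NC and 32.8 ± 3.84 FPKM with MEOX2, close together as IGF1 was. Its kinase JAK2 was at 11.8 ± 1.94 and 12.6 ± 0.516 FPKM. The feedback inhibitors SOCS2 and SOCS3 had log2 changes of 0.31 (SE 0.16) and -0.25 (SE 0.11), neither called, and that of SOCS2 was 0.18 without NC sample 1. Among 5 tested genes of IGF2 transcription and mRNA binding, limma and limma voom called none and 1 had an unadjusted p under 0.05, beside 13.4% of all genes. That gene was HMGA2, a chromatin protein upstream of PLAG1 and IGF2, at 5.40, 7.19 and 8.62 FPKM in NC samples 1 to 3 and 3.25, 4.46 and 3.03 FPKM in MEOX2 samples 1 to 3. Its groups did not overlap, but it had only 8 to 23 reads per library, and its limma adjusted p of 0.0520 ranged from 0.0359 to 0.253 over the alternatives. IGF2BP2, PLAGL1 and CTCF overlapped between the groups, with log2 changes of 0.02, 0.12 and -0.03.

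**Figure D4:**
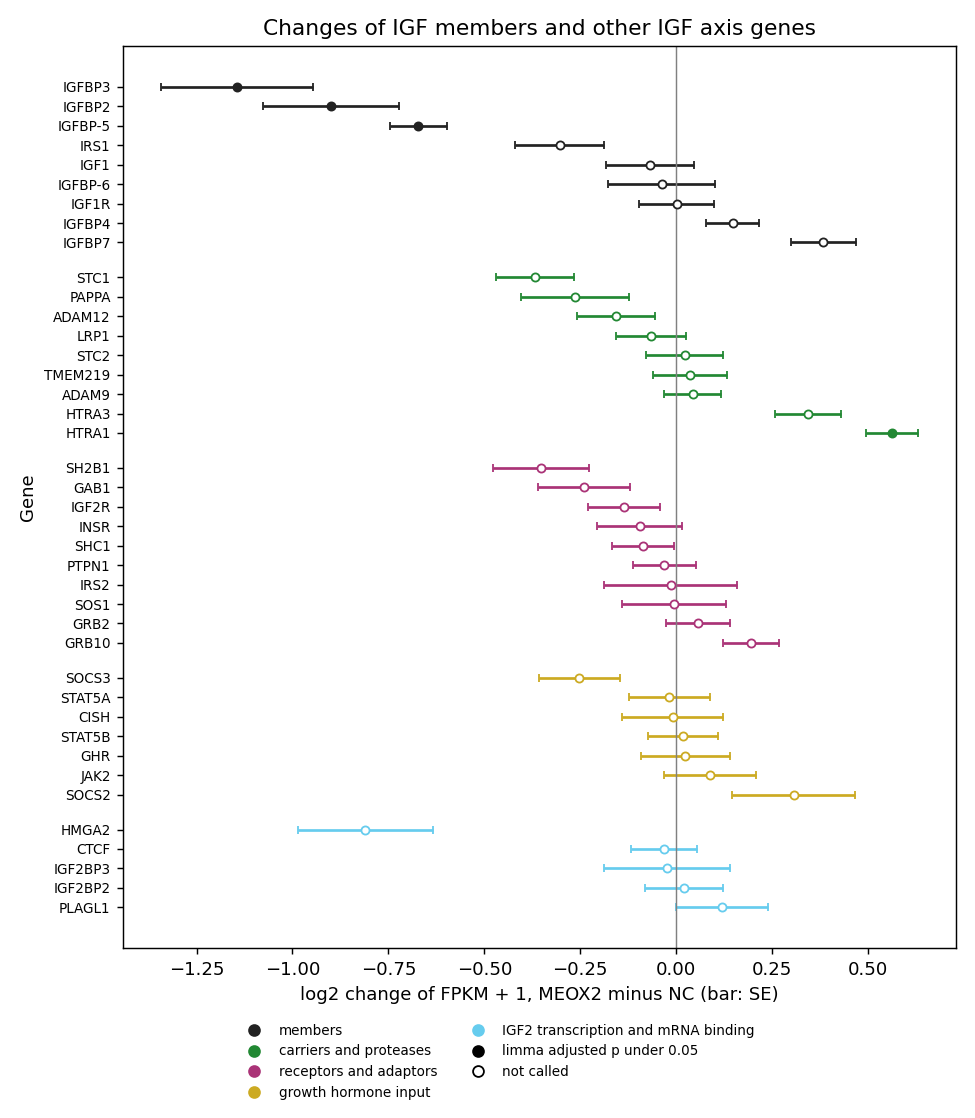
Log2 change of FPKM + 1 (MEOX2 minus NC) with its SE for the 9 IGF genes (black) and the 31 other IGF axis genes tested, by group. Filled points passed a limma adjusted p of 0.05, which for the IGF genes is a description only: IGFBP3, IGFBP2 and IGFBP-5 at -1.14, -0.90 and -0.67, and HTRA1 at 0.56; all other points are open.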

How the data were processed

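TRIzol was used for RNA extraction and the NEBNext Ultra kit for the libraries, per the labels' protocols. The submitters' processing notes name HISAT2 2.0.5, featureCounts 1.5.0-p3, DESeq2 1.20.0, CASAVA 1.8 and fastp, without settings. No build, annotation or strand setting is named there, so overlapping or antisense genes cannot be told apart. The deposited FPKM values, made by the authors, times gene length came out, in 100% of non-zero values, as whole reads within 0.001. The library size they imply was 0.967 to 1.02 times the recovered total.

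Log2(FPKM + 1) of genes averaging 1 FPKM or more was fitted with limma 3.58.1 in R 4.3.3 (group as the only term, eBayes trend) with Benjamini-Hochberg adjustment over all 13121 genes and a threshold of 0.05. The log2 change understates the change of low genes. The fit was also run on simulated reads that gave every gene the same spread beyond counting, unlike the genes here. Nothing is read from that run. Symbols were matched by name or RefSeq synonym. Sequences were not used here. The genes and lists were chosen with earlier results of these data known. Named genes were the IGF genes, MEOX2, called genes and up to 4 with the smallest p of each of 4 pathway groups, and the 3 genes most like each IGF gene that changed by over 0.5. Alternatives were other pseudocounts (0.1, 2), filters (none, 5 FPKM), scalings, variance models, a replicate block, limma voom on recovered reads, and each library left out. Replicates are samples with separate labels. Other steps used pandas 2.3.3, numpy 2.4.6 and matplotlib 3.10.9 in Python 3.11.15.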

Additional observations from a re-analysis of the deposited data

How the results depend on the processing

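The log2 changes of IGFBP-6, IGF1 and IGF1R turned sign in 2, 1 and 6 of the 16 alternatives. Those of IGFBP2, IGFBP3, IGFBP4, IGFBP-5, IGFBP7, IRS1 and HTRA1 kept their sign. The groups of these genes did not overlap, so leaving out a library or changing the pseudocount could not turn the sign. Nothing is read from its being kept. The count of IGF genes called, 3, was 1 without a filter and 1 to 3 with single libraries left out. IGFBP2 lost its call without a filter and without the trend, IGFBP3 without a filter and with the robust fit, and IGFBP7 gained one with a filter of 5 FPKM, the robust fit, limma voom and without MEOX2 sample 1. The count over all genes, 350, was 194 without a filter, 547 with limma voom and 117 to 276 with single libraries left out. The count of pathway genes called, 1, was 2 with a filter of 5 FPKM and 2 with the robust fit, adding HMGA2 (adjusted p = 0.0359 and 0.0402 by limma), and 3 with limma voom, adding HTRA3 and STC1. It stayed at 1 with any single library left out. With the replicate block, 242 genes were called over all, 3 IGF genes and 1 pathway gene. Same-numbered samples had correlations of deviations of -0.07, 0.02 and -0.0042, so the numbers were not taken as pairs. Depth limits IGF2, with at most 1 read, and HMGA2.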
